A study of Mus musculus with 25 samples.

Results

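Loss of p53 in the livers of old mice on a control diet was described from 12 of the 25 liver RNA-seq libraries of the study, namely the 6 libraries labelled Control_p53KO and the 6 labelled Control_Rosa26KO. The mice of both groups were C57BL6/J males aged 24 months that ate a control diet. The Control_p53KO mice carried a knockout of p53, and the Control_Rosa26KO mice carried a knockout at Rosa26, a locus widely used as a neutral control site. The other 13 libraries came from mice of the same strain, sex and age on a high-fat diet (HFD), 7 of them HFD_p53KO and 6 HFD_Rosa26KO, and shared no animal group with the control-diet comparison. The labels do not state how or in which liver cells the knockouts were made, and whether each library came from a separate mouse is not stated, so that p-values measure the spread between these libraries.

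The transcription factor p53, encoded by Trp53, is held at low levels in unstressed cells by the ubiquitin ligase Mdm2 and its partner Mdm4. DNA damage and other stresses stabilise it, and it then binds pairs of half-sites in DNA and activates genes of cell cycle arrest, cell death, DNA repair and metabolism. In the liver it is also known for effects on lipid handling and for restraining the growth of damaged hepatocytes.

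PolyA RNA of flash-frozen liver was sequenced, and reads were counted per gene. Total counts per library were between 18142837 and 20414485 in Control_p53KO and between 18744770 and 21328209 in Control_Rosa26KO. Of 24537 genes, 14133 had enough counts to be tested. Values below are CPM, read counts relative to the size of the library after TMM scaling, and log2 fold changes are p53KO over Rosa26KO from a negative binomial fit in edgeR. Hepatocyte markers dominated each of the 12 libraries: the 15 markers measured summed to between 84636 and 155115 CPM in Control_p53KO and between 113954 and 175234 CPM in Control_Rosa26KO. Control_p53KO 3 held the lowest of these sums. Control_p53KO 1 and Control_p53KO 3 stood apart from the others on the first principal component (49.5 and 44.5, against a range of -38.7 to 21.0 in the other 10 libraries), which carried 48.2% of the variance. Several medians and counts are therefore also given without these libraries.

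Trp53 itself (chromosome 11, 69580359 to 69591873, plus strand, GRCm38) was lower in p53KO livers. It was at 26.3, 20.2, 35.6, 17.2, 18.6 and 26.6 CPM in Control_p53KO 1 to 6, against 37.2, 43.7, 33.0, 34.2, 31.6 and 41.1 CPM in Control_Rosa26KO 1 to 6. Of the p53KO libraries 5 lay below each Rosa26KO library, while Control_p53KO 3 lay inside the Rosa26KO range. The means were 24.1 ± 6.89 CPM in Control_p53KO and 36.8 ± 4.80 CPM in Control_Rosa26KO (SD, n = 6 each), a log2 fold change of -0.61 (SE 0.15). By a two-sided exact permutation test Trp53 fell (p = 0.00866, or 0.0260 after adjustment over the 3 genes Trp53, Cdkn1a and Mdm2), where the smallest p that 924 arrangements allow is 0.00216. Within the 3 runs of consecutive library names, the log2 differences were -0.80, -0.44 and -0.70, and permuting within runs gave an exact p of 0.0278. Across all 14133 genes its edgeR adjusted p was 0.453 and did not pass. When Control_p53KO 1 and 3 were left out, its log2 fold change was -0.83 (exact permutation p 0.00476). This exact test was added later, and leaving out Control_p53KO 3 removed the only overlap between the groups. The lower p follows from that removal and is no check. Transcripts remained in all 6 p53KO libraries, the deleted exons are not given in the labels, and the counts do not measure p53 protein. In whole liver, fewer cells of a type and less RNA per cell cannot be told apart.

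Cdkn1a, which encodes the cell cycle inhibitor p21 and is the best known p53 target (chromosome 17, 29090976 to 29100727, plus strand), was at 23.5, 4.29, 25.6, 10.2, 3.54 and 13.6 CPM in Control_p53KO, against 36.6, 88.9, 33.9, 22.4, 16.6 and 16.2 CPM in Control_Rosa26KO. The groups overlapped through Control_p53KO 1 and 3, which exceeded the 3 lowest Rosa26KO libraries, and Control_Rosa26KO 2 was far above the rest. The log2 fold change was -1.41 (SE 0.54, edgeR adjusted p 0.472). The two-sided exact permutation p was 0.0390 before and 0.0584 after adjustment over the 3 genes, so that Cdkn1a did not pass the adjusted test. Without Control_Rosa26KO 2 the log2 fold change was -0.90 and the exact p 0.0801, and without Control_p53KO 1 and 3 they were -2.17 and 0.0286. The last exact test was also added later. It left out the p53KO libraries of highest Cdkn1a, through which the groups overlapped, so that its lower p is no check.

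Mdm2, the ligase that degrades p53 and is itself a target (chromosome 10, 117688875 to 117710758, minus strand), differed little. It was between 28.9 and 33.7 CPM in Control_p53KO and between 29.7 and 36.8 CPM in Control_Rosa26KO. Its log2 fold change was -0.12 (SE 0.08), with a two-sided exact permutation p of 0.0714 before and after adjustment over the 3 genes. Its partner Mdm4 had a log2 fold change of 0.19 (SE 0.10, edgeR adjusted p 0.511).

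Of 57 listed p53 targets, 55 were tested, and their median log2 fold change was -0.13, against 0.01 over all genes tested. Below 0 were 41 of the 55, against 48.1% of all genes. At an unadjusted edgeR p under 0.05, 11 of the 55 (20%) were lower in p53KO, where 4.12% of all genes were, and 2 (Sesn1 and Dram1) were higher, where 5.84% were. No member passed after adjustment over all genes, where 0% of the genes passed. The lower members were Ccng1, Cdkn1a, Plk2, Gadd45a, Trp53cor1, Bax, Eda2r, Aen, Ephx1, Abhd4 and Gdf15. By role, the median log2 fold change was -0.42 for 11 genes of arrest and damage response, -0.17 for 14 genes of cell death, -0.12 for 18 genes of metabolism and stress, -0.11 for 6 genes that control p53 and -0.03 for 6 genes of DNA repair.

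**Figure D1:**
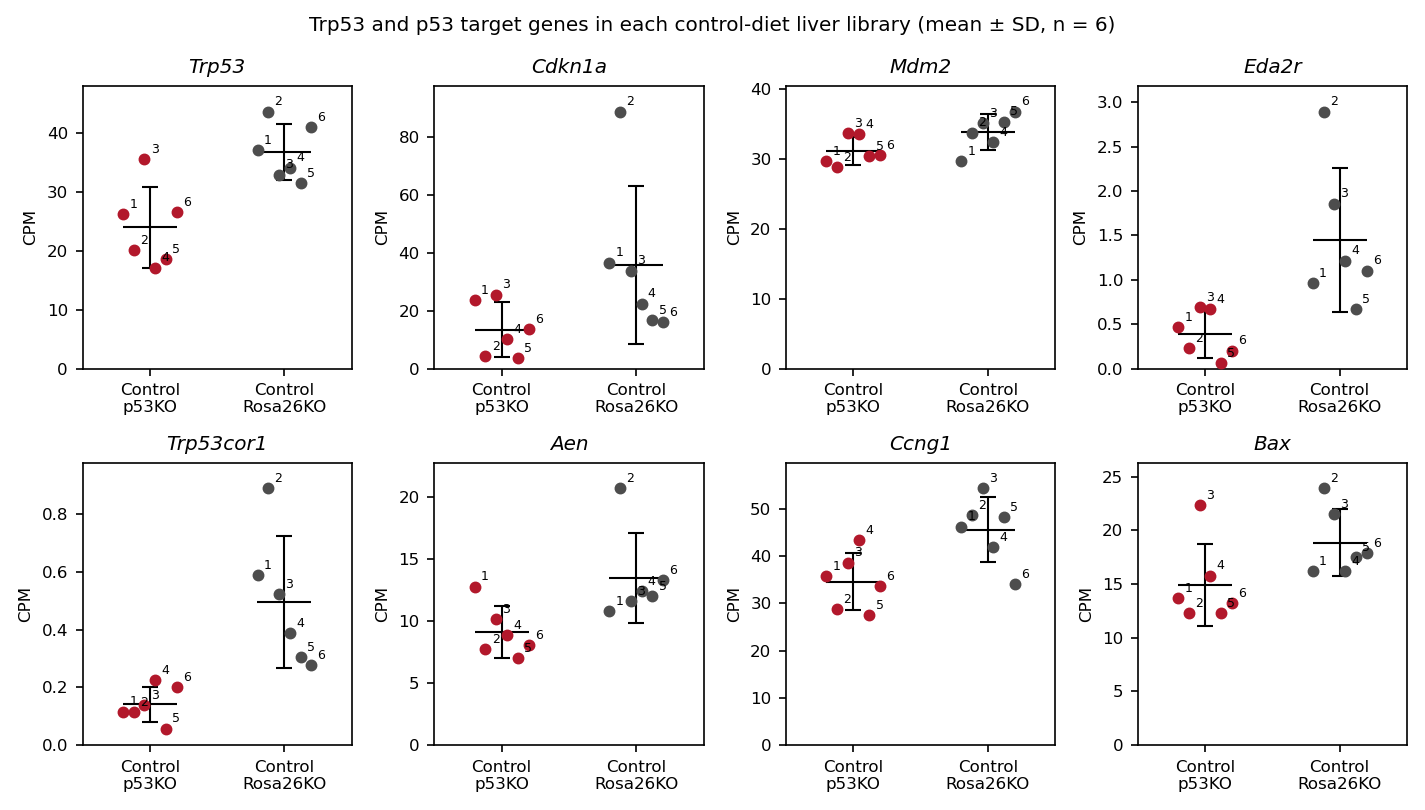
CPM of Trp53 and 7 of its target genes in each control-diet library, with Control_p53KO left (red) and Control_Rosa26KO right (grey). Points are libraries numbered by replicate, horizontal lines are means and bars are SD (n = 6), and each vertical axis starts at 0. Trp53cor1 shows no overlap between the groups, and Control_Rosa26KO 2 is the highest library for Cdkn1a (88.9 CPM) and Aen (20.7 CPM).

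Among the arrest genes, Trp53cor1 (lincRNA-p21, a noncoding RNA transcribed next to Cdkn1a on chromosome 17) was the 1 target whose groups did not overlap. Over all genes, 0.17% did not overlap and were lower in p53KO, and 0.113% did not overlap and were higher. It was at 0.12, 0.11, 0.14, 0.22, 0.06 and 0.20 CPM in Control_p53KO, against 0.59, 0.89, 0.52, 0.39, 0.30 and 0.28 CPM in Control_Rosa26KO, with a log2 fold change of -1.77 (SE 0.50, edgeR adjusted p 0.453). These levels are low, and its exons overlap 2 other noncoding genes on the opposite strand, whose reads may be counted with it. Plk2, a polo-like kinase, averaged 16.6 ± 2.57 CPM in Control_p53KO and 23.2 ± 4.49 CPM in Control_Rosa26KO (SD, n = 6 each). Gadd45a, a stress-induced inhibitor of growth, averaged 7.77 ± 2.62 CPM in Control_p53KO and 12.9 ± 3.70 CPM in Control_Rosa26KO (SD, n = 6 each).

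Among the cell death genes, Eda2r, a receptor of the tumour necrosis factor receptor family, had the lowest log2 fold change of the list (-1.89, SE 0.48, edgeR adjusted p 0.453). It was at 0.46, 0.23, 0.69, 0.67, 0.06 and 0.20 CPM in Control_p53KO, against 0.96, 2.90, 1.86, 1.22, 0.67 and 1.104 CPM in Control_Rosa26KO. The groups overlapped only where Control_Rosa26KO 5 met Control_p53KO 3 and 4. Aen, a nuclease of apoptosis, was at 12.8, 7.72, 10.1, 8.84, 7.03 and 8.06 CPM in Control_p53KO, against 10.8, 20.7, 11.6, 12.4, 12.01 and 13.3 CPM in Control_Rosa26KO. Of the p53KO values only that of Control_p53KO 1 reached the Rosa26KO range, and the log2 fold change was -0.57 (SE 0.18). Bax, which opens the outer mitochondrial membrane in apoptosis, averaged 14.9 ± 3.84 CPM in Control_p53KO and 18.9 ± 3.15 CPM in Control_Rosa26KO (SD, n = 6 each).

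Ccng1, a cyclin that takes part in the feedback on p53, was at 35.8, 28.8, 38.6, 43.4, 27.5 and 33.6 CPM in Control_p53KO, against 46.3, 48.7, 54.4, 41.9, 48.2 and 34.1 CPM in Control_Rosa26KO (log2 fold change -0.40, SE 0.14). The groups overlapped through Control_p53KO 1, 3 and 4 and Control_Rosa26KO 4 and 6. Gdf15, a secreted stress factor, was between 4.16 and 14.9 CPM in Control_p53KO and between 9.26 and 13.3 CPM in 5 of the Control_Rosa26KO libraries, while Control_Rosa26KO 2 held 40.4 CPM. Ephx1, an epoxide hydrolase, had a log2 fold change of -0.56 and Abhd4, a lipid hydrolase, one of -0.26. Of the higher members, Sesn1 (log2 fold change 0.23), a sestrin, averaged 17.8 ± 2.29 CPM in Control_p53KO and 15.2 ± 1.21 CPM in Control_Rosa26KO (SD, n = 6 each). Dram1 (0.88), an inducer of autophagy, was at 12.1 CPM in Control_p53KO 3 and between 2.24 and 6.19 CPM in the other p53KO libraries.

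Left out in turn, each of the 12 control-diet libraries kept the median of the p53 targets between -0.15 and -0.12, and the 11 lower members kept a negative log2 fold change in each of those fits. Control_Rosa26KO 2 mattered most for the count. Without it 5 members (Ccng1, Gadd45a, Trp53cor1, Eda2r and Aen) were lower at an unadjusted edgeR p under 0.05. Over the fits with 1 library left out, between 317 and 1018 of all genes were lower. In a fit that left out Control_p53KO 1 and 3 the median was -0.13, with 10 members lower and 0 higher by that rule. Of all 14273 genes in that fit, 269 were lower and 230 higher. Without Control_Rosa26KO 2 as well the median was -0.09, with 6 members lower, where 225 of 14218 genes were. The count of lower members was 6 in a fit of the 12 control-diet libraries alone, where 344 of 13566 genes were lower. By limma voom it was 7, where 480 of 14133 genes were lower. The median within the runs of library names was -0.21, -0.09 and -0.09. By mean log2 CPM of the list, relative to the 12 libraries, only Control_p53KO 2 (-0.29) and 5 (-0.37) lay below the Rosa26KO libraries. Those ranged from -0.09 to 0.56, with Control_Rosa26KO 2 the highest. Control_p53KO 1, 3, 4 and 6 (0.06, 0.10, -0.07 and -0.003) lay within that range.

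**Figure D2:**
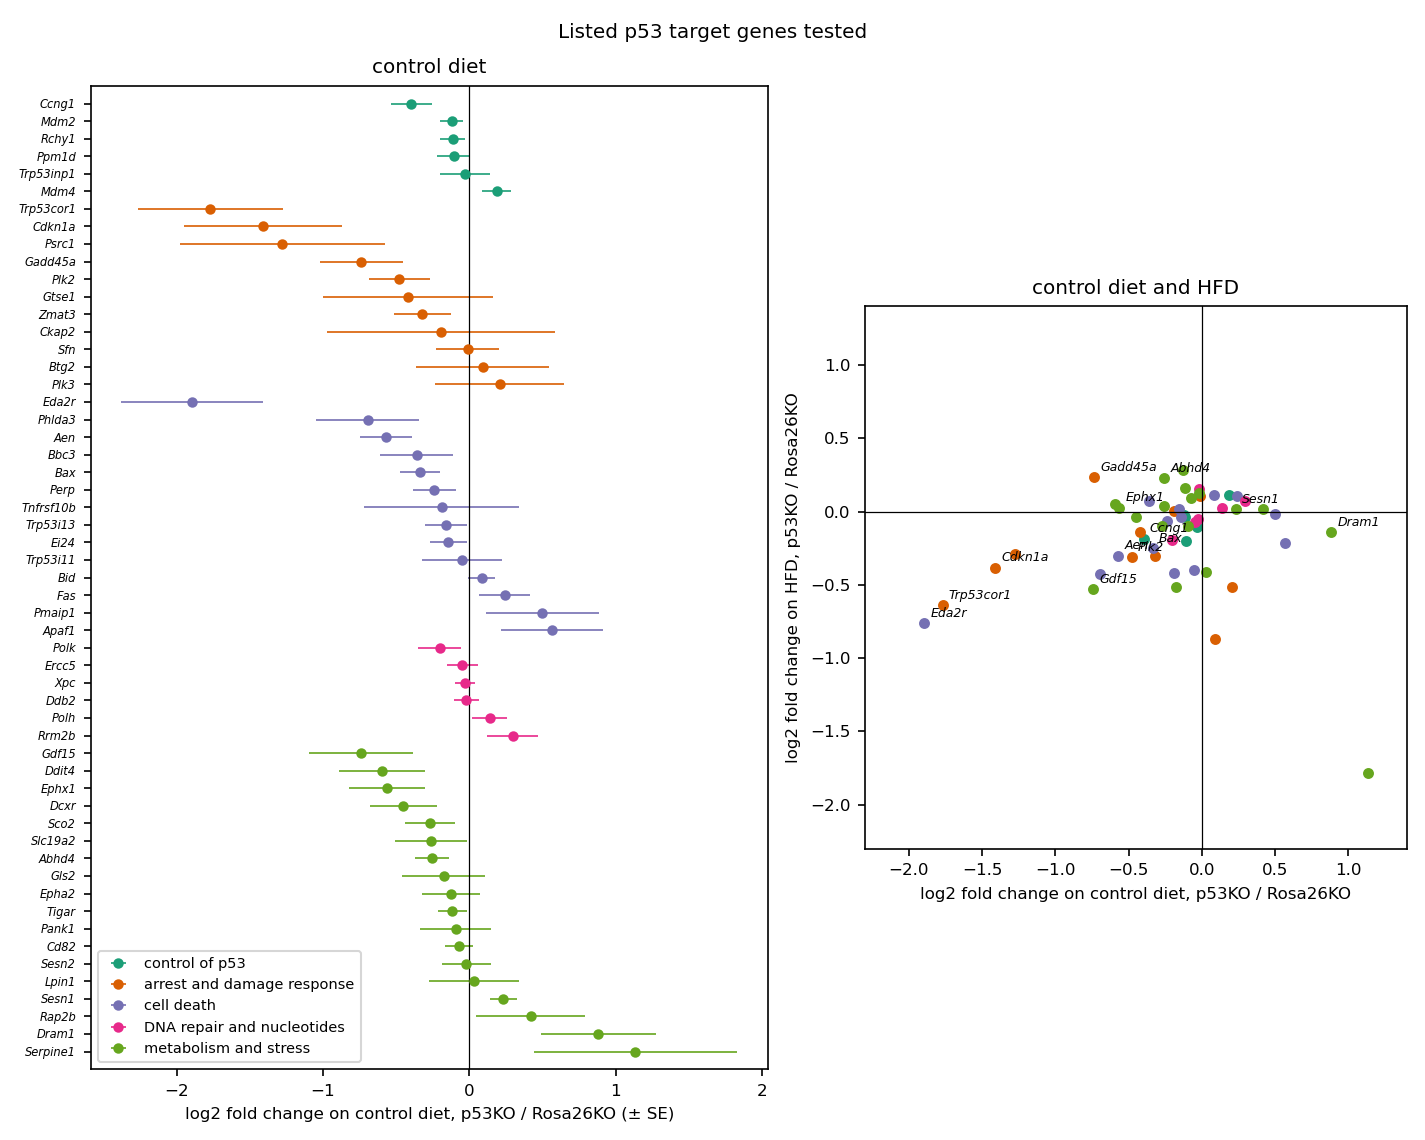
Log2 fold changes of the 55 tested p53 targets, p53KO over Rosa26KO. Left, control diet, with bars for the SE of the edgeR fit and colours for roles; right, control diet (horizontal axis) against HFD (vertical axis), with names at the 13 genes of unadjusted p under 0.05 on control diet. On control diet 41 of 55 lie below 0, and 34 of 55 have the same sign on both diets, where 42.2% of all genes do.

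The promoters of the lower targets were searched for the p53 half-site, a 10-base motif given here by its name, which reads the same on both strands. The windows were the 300 bases from 250 before to 50 after each transcription start in RefSeq (GRCm38.p6). A half-site was found in 8.36% of 32851 windows and for 9.55% of 27025 gene symbols. It was found for 15 of the 46 listed targets with a window (32.6%) and for 6 of the 10 lower targets with a window, Abhd4, Aen, Bax, Ccng1, Cdkn1a and Gadd45a. The other listed targets with a half-site were not among the lower ones, and Sesn1 among them was higher (log2 fold change 0.23). Whether the half-site goes with being lower was not tested. A pair of half-sites with at most 13 bases between them was found in 24 windows (0.0731%), of which 1 was that of Cdkn1a, with 12 bases between. The lines below show the stretch around the half-sites, in capitals, for 4 of these 6 lower targets, in which the half-sites lay upstream of the start of the window that held them. They are given 5′ to 3′ on the strand of the gene and are shown because these genes share the motif and were lower in p53KO livers.
Cdkn1a, chr17:29090876-29090967, plus strand: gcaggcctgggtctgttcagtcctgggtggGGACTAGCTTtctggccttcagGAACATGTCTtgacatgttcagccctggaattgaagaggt
Ccng1, chr11:40755432-40755501, minus strand: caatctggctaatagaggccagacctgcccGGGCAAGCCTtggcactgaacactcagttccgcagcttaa
Bax, chr7:45467060-45467129, minus strand: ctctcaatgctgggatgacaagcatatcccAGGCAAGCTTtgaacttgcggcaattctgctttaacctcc
Gadd45a, chr6:67037408-67037477, minus strand: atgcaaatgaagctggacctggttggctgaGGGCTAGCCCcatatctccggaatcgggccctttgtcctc
The first half-site began 73 bases before the start in Cdkn1a, and the half-sites began 185, 201 and 40 bases before the start in Ccng1, Bax and Gadd45a. In Aen, for which the table lists more than one start, the half-site began 121 bases before one start and 10 bases after another. The match describes letters in the window and does not show binding.

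Across the whole transcriptome, edgeR called 0 of 14133 genes at an adjusted p of 0.05. At an unadjusted p under 0.05 it gave 826 genes higher and 582 lower in p53KO. DESeq2 called 1 gene (0.00708% of those tested), Slc7a4, with 954 higher and 588 lower at an unadjusted p under 0.05, while limma voom called 0, with 325 higher and 480 lower. Control_p53KO 3 was the highest of the 6 p53KO libraries in 527 of the 826 higher genes (63.8%), and Control_p53KO 1 in 178 (21.5%). Without both libraries 230 genes were higher and 269 lower at an unadjusted p under 0.05, and edgeR again called 0 after adjustment.

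In 24 genes (0.17%) all 6 p53KO libraries lay below all 6 Rosa26KO libraries, and in 16 genes (0.113%) they lay above them. Where the groups do not differ, 1 of the 924 arrangements of the 12 libraries splits them in each direction, a proportion of 0.00216 over both. The shares found were not far above that rate, and no excess was tested. With 1 library left out, the counts without overlap reached 81 lower (without Control_p53KO 4) and 69 higher (without Control_p53KO 2). Slc7a4, a member of the SLC7 amino acid transporter family, was at 1.45, 2.00, 1.01, 1.51, 0.91 and 1.402 CPM in Control_p53KO, against 3.05, 2.58, 3.48, 3.21, 2.44 and 2.76 CPM in Control_Rosa26KO. By DESeq2 it fell (adjusted p 0.00193), with an edgeR log2 fold change of -1.08 (SE 0.21, adjusted p 0.337) and a limma voom adjusted p of 0.0896. Its exons overlap P2rx6 on the opposite strand, and whether reads were counted by strand is not stated. Slc7a4 averaged 1.79 ± 0.432 CPM (SD, n = 7) in HFD_p53KO and 1.74 ± 0.413 CPM (SD, n = 6) in HFD_Rosa26KO. Its log2 fold change on HFD was 0.04. The difference between the diets in this log2 fold change had an unadjusted p of 0.00064 (edgeR adjusted p 0.462).

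The other named genes that were lower without overlap served varied roles. Fam110a was between 3.09 and 4.51 CPM in Control_p53KO and between 4.69 and 9.84 CPM in Control_Rosa26KO (log2 fold change -0.71, SE 0.16). Fzr1, an activator of the anaphase-promoting complex, was between 13.5 and 14.7 CPM in Control_p53KO and between 16.4 and 21.0 CPM in Control_Rosa26KO (-0.33, SE 0.07). Commd3, of the COMMD family that takes part in endosomal sorting, was between 47.8 and 54.5 CPM in Control_p53KO and between 60.2 and 75.2 CPM in Control_Rosa26KO (-0.34, SE 0.08). The interleukin 11 receptor gene Il11ra1 had a log2 fold change of -0.42, the RNA polymerase II subunit gene Polr2i one of -0.45, and the histone methylation cofactor gene Dpy30 one of -0.34. N4bp3 (-0.49), Zfp414 (-0.42), Rogdi (-0.39) and Mpv17l2 (-0.35) completed those named.

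Those named as higher without overlap were Fundc2 (log2 fold change 0.41), a protein of the outer mitochondrial membrane, and Vbp1 (0.38), a prefoldin subunit. The others were Morc3 (0.35), a chromatin ATPase, Cenpc1 (0.35), a centromere protein, Bbx (0.34), Ptch1 (0.34), the Hedgehog receptor, Ice1 (0.31), Pikfyve (0.30), a phosphoinositide kinase, and Pdcd10 (0.26). Ptch1 was between 26.2 and 30.7 CPM in Control_p53KO and between 18.3 and 25.4 CPM in Control_Rosa26KO. Morc3 was at 39.4 CPM in Control_p53KO 3 and between 20.4 and 22.4 CPM in the other p53KO libraries, close to the 20.4 CPM reached in Control_Rosa26KO. All 40 genes kept the sign of their log2 fold change without Control_p53KO 1 and 3. Their choice by lack of overlap made this all but certain, so that it is no check on them.

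Of the 12 genes of smallest p, 3 beside Trp53 and the sulfotransferase gene Sult1e1 overlapped between the groups. Atp8b5, of the phospholipid flippase family, was at 0.40, 0.40, 0.65, 0.84, 0.34 and 0.65 CPM in Control_p53KO, against 1.93, 2.85, 1.45, 1.55, 1.83 and 0.77 CPM in Control_Rosa26KO (log2 fold change -1.65, SE 0.39). Only Control_Rosa26KO 6 fell inside the p53KO range. Hdac4, a class IIa histone deacetylase, had a log2 fold change of 0.35 (SE 0.08), and Hcfc1r1, whose exons overlap Thoc6 on the opposite strand, one of -0.43 (SE 0.11). Each had an edgeR adjusted p of 0.453.

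**Figure D3:**
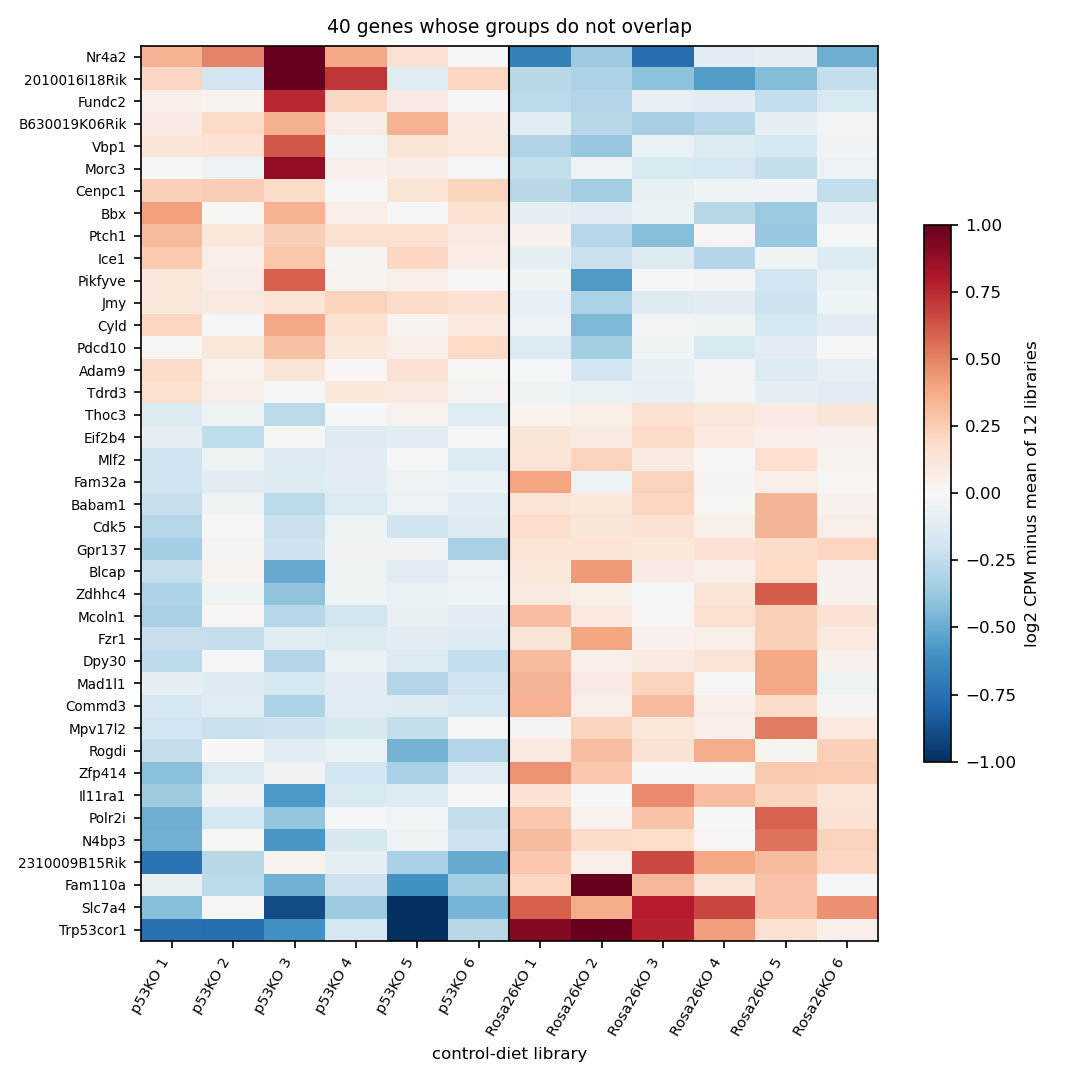
Log2 CPM minus the mean of the 12 libraries for the 40 genes whose groups do not overlap, with genes in rows ordered by log2 fold change and libraries in columns, Control_p53KO left of the line and Control_Rosa26KO right of it. Red is above and blue below the mean, and the colour scale ends at 1 and -1. The genes were chosen for the lack of overlap, so that the split is by construction, while Control_p53KO 3 holds the deepest red among the higher genes.

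Transcript length and base composition moved with the comparison. The 826 higher genes had a median transcript length of 4556 bases and a GC content of 45.0%, and the 582 lower genes 2290 bases and 55.2%, against 3299 bases and 49.7% over the genes tested with a known length (97.6%). The genes without overlap showed medians of 4111.5 bases and 43.6% where higher, and of 2042 bases and 55.5% where lower. In each library, the median log2 deviation of the 10% longest transcripts (1380 genes) minus that of the 10% shortest was 0.11 ± 0.13 in Control_p53KO and -0.11 ± 0.14 in Control_Rosa26KO (SD, n = 6 each, two-sided exact permutation p = 0.0195). The same measure for the 10% of highest minus the 10% of lowest GC content was -0.10 ± 0.08 in Control_p53KO and 0.10 ± 0.24 in Control_Rosa26KO (SD, n = 6 each, exact p = 0.0238). Both measures were chosen after the values were seen. With the length measure as a term in the edgeR fit, 326 genes were higher and 356 lower at an unadjusted p under 0.05. The p53 targets then had a median of -0.10, with 15 lower and 1 higher by that rule. With the GC measure as a term the median was again -0.10, with 4 lower and 1 higher, where 537 of all genes were lower and 799 higher. Trp53 then had a log2 fold change of -0.47. Cdkn1a had one of -2.08 with the length term and of -0.78 with the GC term.

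**Figure D4:**
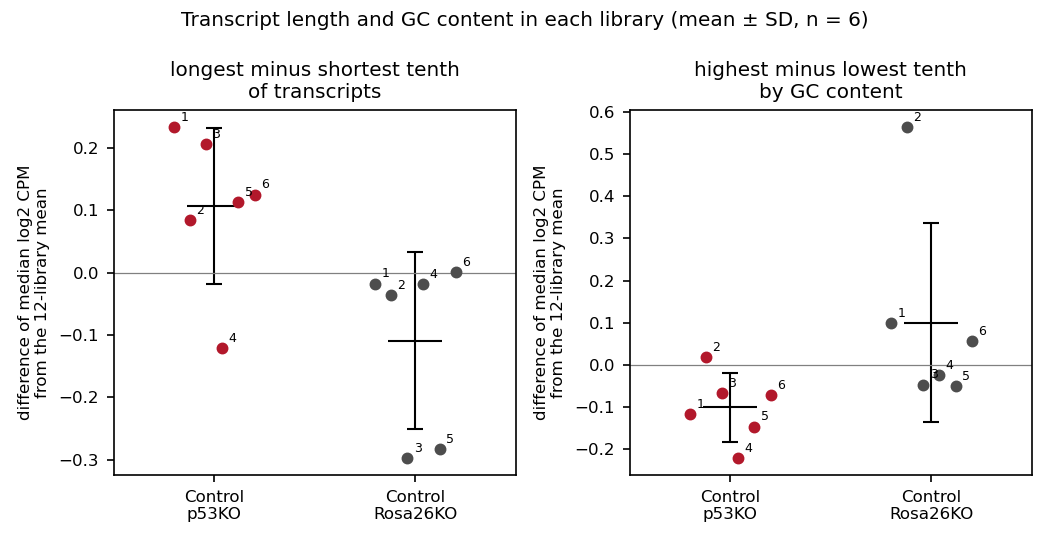
Difference between the median log2 CPM deviation of the top and bottom 10% of genes by transcript length (left) and GC content (right) in each library, Control_p53KO left (red) and Control_Rosa26KO right (grey). Points are libraries numbered by replicate, with means and SD (n = 6). For length 5 of 6 p53KO libraries lie above the Rosa26KO libraries, and for GC content Control_Rosa26KO 2 stands at 0.56.

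Of 31 genes of fatty acid and triglyceride synthesis, 28 had a log2 fold change below 0 (median -0.35), where 48.1% of all genes did, and 3 (Srebf1, Slc25a1 and Agpat2) were lower at an unadjusted p under 0.05, where 4.12% of all genes were. The mean level of the list in Control_p53KO 2 and 4 lay within the range of the Rosa26KO libraries. With the GC measure as a term 11 members were lower and with the length measure 1, where 537 and 356 of all genes were. The count was 7 without Control_p53KO 4, 6 without Control_p53KO 2 and 1 without Control_Rosa26KO 5. Of all genes, 1018 were lower without Control_p53KO 4 and 317 without Control_Rosa26KO 5. Srebf1, the transcription factor that drives lipogenesis, was at 229, 504, 140, 427, 330 and 252 CPM in Control_p53KO, against 449, 386, 395, 564, 604 and 476 CPM in Control_Rosa26KO (log2 fold change -0.61, SE 0.22, edgeR adjusted p 0.455). Control_p53KO 2 and 4 lay among the Rosa26KO libraries and the other 4 below them. The exons of Srebf1 overlap Rai1 on the opposite strand. Slc25a1, the mitochondrial citrate carrier, averaged 264 ± 58.7 CPM in Control_p53KO and 347 ± 54.0 CPM in Control_Rosa26KO (SD, n = 6 each). Agpat2, an acyltransferase of triglyceride synthesis, had a log2 fold change of -0.33. The 11 genes from citrate to palmitate were all below 0 (median -0.48), as were the 5 regulators (-0.23). The median of the list was -0.15 without Control_p53KO 1 and 3, with 27 members below 0 and 0 at an unadjusted p under 0.05.

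Other metabolic lists lay below 0 as well. In the lipid droplet, oxidation, cholesterol and xenobiotic lists, 5.88%, 3.85%, 0% and 4% of members were lower at an unadjusted p under 0.05. Over all genes 4.12% were, so that these counts were near or below the share of all genes. The 17 lipid droplet genes had a median log2 fold change of -0.27, where Bscl2 (seipin, -0.29, SE 0.10) was lower at an unadjusted p under 0.05. The 26 genes of fatty acid oxidation had a median of -0.17, with Cpt2 (-0.40), the inner carnitine palmitoyltransferase, lower by that rule, and the 23 cholesterol synthesis genes had one of -0.14 with no member past it. Of 25 xenobiotic metabolism genes (median -0.25), Cyp2b10, the classical target of the receptor CAR, was at 3.35, 2.23, 0.28, 7.33, 5.83 and 1.35 CPM in Control_p53KO, against 3.11, 9.40, 12.4, 8.74, 17.3 and 10.1 CPM in Control_Rosa26KO (log2 fold change -1.59, SE 0.60). These 4 medians were, without Control_p53KO 1 and 3, -0.10, 0.04, -0.13 and -0.03, in the order lipid droplet, oxidation, cholesterol and xenobiotic, with 1, 0, 0 and 1 members lower by that rule. Without Control_p53KO 4 these counts were 5, 6, 0 and 2, where 1018 of all genes were lower.

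All 37 oxidative phosphorylation genes had a log2 fold change below 0 (median -0.16, lowest -0.35, highest -0.04), where 48.1% of all genes did. Of the 37, 2 (5.41%, near the 4.12% of all genes) were lower at an unadjusted p under 0.05, Ndufs7 of complex I (-0.35) and Atp5d of the ATP synthase (-0.31). That count was 13 without Control_p53KO 4, 5 without Control_Rosa26KO 1, 1 without Control_p53KO 2, 3 or 6 or Control_Rosa26KO 3, and 0 without Control_p53KO 1 or Control_Rosa26KO 5. Of all genes, 1018 were lower without Control_p53KO 4 and 317 without Control_Rosa26KO 5. With the length measure as a term, 8 of 37 were below 0 and the median was 0.06. It was -0.04 with 26 below 0, and 0 lower by the unadjusted rule, when Control_p53KO 1 and 3 were left out. Among 16 pericentral genes (median -0.21), the Wnt pathway feedback genes Rnf43 (-0.51) and Axin2 (-0.36) were lower at an unadjusted p under 0.05. Neither passed without Control_p53KO 1 and 3 (unadjusted edgeR p 0.219 and 0.0633), where 0 of the 16 were lower, and 0 were lower without Control_p53KO 6 or Control_Rosa26KO 6.

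Of 25 NRF2 targets and partners (median -0.14), 22 lay below 0, where 48.1% of all genes did. Nfe2l2, which encodes NRF2, had a log2 fold change of -0.44 (SE 0.19). Nfe2l2 and Ephx1 were lower at an unadjusted p under 0.05 (8% of the list, where 4.12% of all genes were). Without Control_Rosa26KO 2 neither passed, the median was -0.06 with 17 below 0, and Nfe2l2 had a log2 fold change of -0.32. Neither passed without Control_p53KO 1, without Control_p53KO 5, or with the GC measure as a term. Bach1, a repressor that competes with NRF2 for its sites, was at 32.9, 36.8, 44.2, 39.9, 42.7 and 39.5 CPM in Control_p53KO, against 33.2, 28.7, 27.6, 36.5, 26.8 and 37.4 CPM in Control_Rosa26KO. The groups overlapped through Control_p53KO 1 and 2 and Control_Rosa26KO 1, 4 and 6. Its log2 fold change was 0.31 (SE 0.09, edgeR adjusted p 0.453), and on HFD it was 0.30. Bach1 averaged 38.1 ± 3.001 CPM (SD, n = 7) in HFD_p53KO and 30.9 ± 2.84 CPM (SD, n = 6) in HFD_Rosa26KO. Among senescence genes other than p53 targets, the cell cycle inhibitor genes had values of both signs: Cdkn2b had a log2 fold change of -0.72, Cdkn1b one of 0.16 and Cdkn2c one of 0.87, each with an edgeR adjusted p of 0.473. Of 21 genes of the unfolded protein and integrated stress response (median 0.12), Atf4 (-0.24) was the 1 member at an unadjusted p under 0.05. This is 4.76% of the list, near the 4.12% of all genes that were lower.

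Liver genes that differ between the sexes varied between single libraries. The female-biased list had a median log2 fold change of 1.08 over 11 genes, with 5 higher at an unadjusted p under 0.05, where 5.84% of all genes were. The mean log2 CPM of its members, relative to the 12 libraries, was 2.07 in Control_p53KO 1 and 2.09 in Control_p53KO 4, and between -1.14 and 0.85 in the other libraries. Sult1e1, the estrogen sulfotransferase, was at 112.8 CPM in Control_p53KO 1 and at most 0.55 CPM in each of the other 11 libraries, and Sult2a1 at 55.7 CPM there and at most 0.22 CPM elsewhere. Cyp17a1, a steroid hydroxylase, was at 239 CPM and Cyp3a41a at 214 CPM in Control_p53KO 1, against at most 45.6 and 30.0 CPM in the other libraries. The male-specific Cyp4a12b was at 0.81 CPM in Control_p53KO 1, between 54.3 and 98.4 CPM in the other p53KO libraries and between 36.8 and 157 CPM in Control_Rosa26KO. Without Control_p53KO 1 the median of the female-biased list was 0.34, with 0 members higher by that rule, without Control_p53KO 1 and 3 it was 0.43, also with 0, and within the runs of library names it was 1.49, 0.44 and -0.43.

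Markers of several immune cell types were high in 1 or 2 p53KO libraries. By mean log2 CPM of the list, neutrophil markers were highest in Control_p53KO 1 and 3, monocyte and macrophage as well as T and NK cell markers in Control_p53KO 3 and 1, Kupffer cell markers in Control_p53KO 3, and B and plasma cell markers in Control_p53KO 6. Of 18 tested neutrophil markers 13 were higher in p53KO at an unadjusted p under 0.05 (median log2 fold change 2.64), where 5.84% of all genes were. Summed neutrophil markers were at 3477 CPM in Control_p53KO 1 and between 407 and 736 CPM in the other p53KO libraries. They were at 2889 CPM in Control_Rosa26KO 1 and between 406 and 564 CPM in the other Rosa26KO libraries. The sum gives most weight to abundant members, and the mean log2 CPM of the list ranked the libraries otherwise. It was 3.98 in Control_p53KO 1, 1.85 in Control_p53KO 3 and only 0.08 in Control_Rosa26KO 1, relative to the 12 libraries. S100a9, a granulocyte calcium-binding protein, was at 170, 6.46, 24.4, 2.01, 6.17 and 3.96 CPM in Control_p53KO, against 3.64, 1.60, 2.96, 3.04, 1.46 and 7.29 CPM in Control_Rosa26KO. The granule genes Mpo (38.7 CPM) and Camp (18.5 CPM) and the secreted Retnlg (15.2 CPM) were likewise highest in Control_p53KO 1. Without Control_p53KO 1 the count was 2, and without Control_p53KO 1 and 3 the median was -0.16, with 0 of 18 past that rule. Lcn2 and other acute phase genes were high in Control_p53KO 1 and in Control_Rosa26KO 1 (mean log2 CPM of the list 2.80 and 2.17 above the mean of the 12 libraries), and Il1rn, which encodes an inhibitor of interleukin 1 signalling, was at 97.6 CPM in Control_p53KO 1.

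Kupffer cell markers had a median log2 fold change of 0.81 over 13 genes. Of these 4 were higher at an unadjusted p under 0.05, where 5.84% of all genes were. Vsig4, the complement receptor of Kupffer cells, was at 507 CPM in Control_p53KO 3, between 39.6 and 77.1 CPM in the other p53KO libraries and between 27.4 and 105 CPM in Control_Rosa26KO. C1qa (692 CPM) and Folr2 (97.9 CPM) were also highest in Control_p53KO 3, as was Itgam (107 CPM) of the monocyte and macrophage list. Of the 13 Kupffer cell markers 2 had a log2 fold change below 0 (lowest -0.54). Without Control_p53KO 3, Cd163 of this list was lower at an unadjusted p under 0.05. All 27 tested T and NK cell markers had a log2 fold change above 0 (median 0.999), where 7332 of 14133 genes did. Of these markers 10 were higher at an unadjusted p under 0.05. Left out alone, Control_p53KO 3 took both counts of higher members to 0, as Control_Rosa26KO 5 did for the Kupffer cell count. Over the fits with 1 library left out they ranged between 0 and 7 for Kupffer cell and between 0 and 17 for T and NK cell markers. Gzmk, a granzyme, was at 2.14, 0.51, 6.23, 0.95, 0.11 and 1.252 CPM in Control_p53KO, against 0.27, 0.71, 0.64, 0.44, 0.24 and 0.17 CPM in Control_Rosa26KO. Gzmb was at 11.8 CPM in Control_p53KO 3. Without Control_p53KO 1 and 3 the medians were -0.12 for Kupffer cell, -0.37 for macrophage and 0.10 for T and NK cell markers, with 0, 0 and 0 members higher at an unadjusted p under 0.05. The summed T and NK markers were between 39.6 and 291 CPM in Control_p53KO and between 33.4 and 75.4 CPM in Control_Rosa26KO.

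The remaining lists of other cell types had medians of 0.30 (B and plasma cell), 0.30 (erythroid), 0.59 (platelet), 0.04 (sinusoidal endothelium) and 0.17 (hepatic stellate cell), with no member at an unadjusted p under 0.05. The biliary and oncofetal list (median 0.29) had 3 higher members (20%), where 5.84% of all genes were higher. Of these members 2, the imprinted fetal RNA H19 (89.3 CPM) and Prom1 (52.7 CPM), reached at most 2.27 and 3.07 CPM outside Control_p53KO 1. Without that library 0 members were higher. Of 42 cell cycle genes 37 had a log2 fold change above 0 (median 0.30), where 7332 of 14133 genes did, with 0 past the unadjusted rule. Mki67, a marker of cycling cells, was at 17.9, 2.17, 39.3, 6.10, 1.94 and 9.47 CPM in Control_p53KO, against 4.82, 14.9, 5.46, 3.70, 2.07 and 3.75 CPM in Control_Rosa26KO. The cell cycle median was -0.25 without Control_p53KO 1 and 3, and 0.92 without Control_Rosa26KO 2, with 25 members higher by that rule. Over the fits with 1 library left out, between 413 and 1258 of all genes were higher by it. The 32 interferon-stimulated genes had a median of -0.17 on control diet and of 0.33 without Control_Rosa26KO 2, in which Oasl1 was at 185 CPM. The part of these cell types in the differences of the other lists was not tested.

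**Figure D5:**
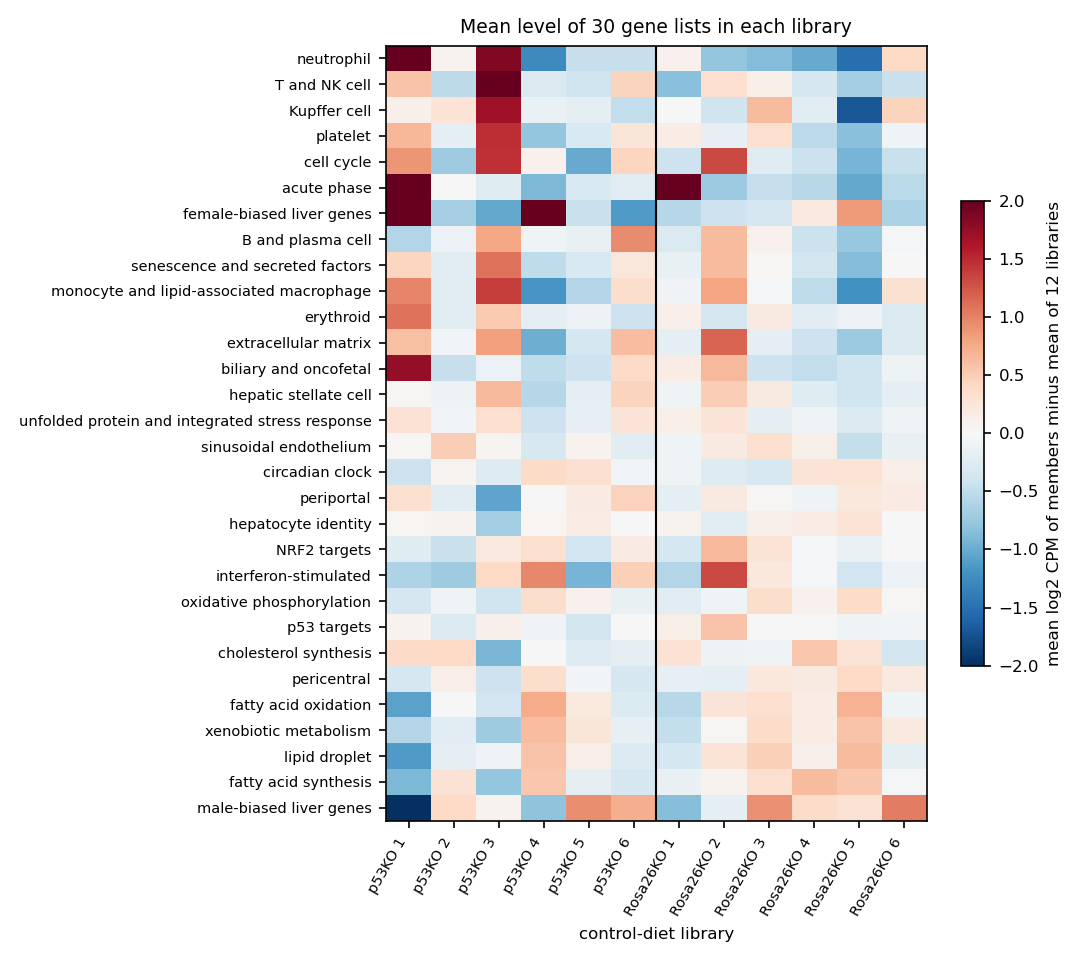
Mean log2 CPM of the tested members of 30 gene lists in each control-diet library, minus the mean of the 12 libraries, with Control_p53KO left of the line and Control_Rosa26KO right of it. Lists run from the highest to the lowest difference of group means, red is above and blue below 0, and the colour scale ends at 2 and -2. Control_p53KO 1 is highest for neutrophil (3.98) and acute phase genes (2.80), Control_p53KO 3 for T and NK cell (2.05) and Kupffer cell genes (1.70), and Control_Rosa26KO 2 for p53 targets (0.56) and interferon-stimulated genes (1.32).

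The same knockout in mice on HFD was measured in 13 other libraries, which entered the same edgeR fit and its estimate of the spread but neither control-diet mean. Trp53 averaged 26.05 ± 4.47 CPM (SD, n = 7) in HFD_p53KO and 37.1 ± 4.56 CPM (SD, n = 6) in HFD_Rosa26KO, where the log2 fold change was -0.51 with a two-sided exact permutation p of 0.00117. The difference between the diets in this log2 fold change had an unadjusted edgeR p of 0.636. Cdkn1a averaged 43.1 ± 29.1 CPM (SD, n = 7) in HFD_p53KO and 56.3 ± 22.8 CPM (SD, n = 6) in HFD_Rosa26KO, and the exact permutation p of this log2 fold change of -0.38 was 0.384. The p53 targets had a median of -0.06 on HFD, with 34 of 55 below 0, where 47.2% of all genes were. Eda2r (-0.76), Trp53cor1 (-0.64), Aen (-0.30), Bax (-0.25) and Ccng1 (-0.18) were again below 0. Gadd45a (0.24) and Abhd4 (0.23) were above 0, with an unadjusted p of the difference between diets in log2 fold change of 0.0208 and 0.0066. HFD values of Plk2, Ephx1 and Gdf15 are not given here. At an unadjusted edgeR p under 0.05 on HFD, 1 of the 55 targets differed in either direction, where 509 of 14133 genes did.

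On HFD edgeR called 0% of genes at an adjusted p of 0.05. At an unadjusted p under 0.05, 244 genes were higher (1.73%) and 265 lower (1.88%), and 11 (0.0778%) and 10 (0.0708%) did not overlap. Of the 40 genes without overlap on control diet, 8 of the 16 higher and 4 of the 24 lower had the same sign on HFD, where 42.2% of all genes did, and 0 of either set had an unadjusted p under 0.05 there in the same direction. The diets were compared only by their p53KO over Rosa26KO log2 fold changes. This difference had an unadjusted p under 0.05 in 10 of the 16 and 19 of the 24, where 8.64% of all genes had one. After adjustment 0% of all genes passed. Since the 40 genes were chosen on control diet, such differences are a description. Median log2 fold changes on HFD were -0.15 for fatty acid synthesis, -0.05 for oxidative phosphorylation, -1.34 for neutrophil markers, 0.20 for T and NK cell markers and -0.45 for female-biased genes.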

How the data were processed

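Liver polyA RNA-seq of 25 libraries was used, 12 of them in the comparison. The authors deposited raw read counts per gene as 1 table. Per the submitters' processing notes, STAR and HOMER were used with GRCm38/mm10. The versions, the strand setting and the rule for multi-mapping reads were not given in the sources used here. Overlapping genes and close paralogs may therefore share counts. Samples were grouped by their titles. Gene positions and transcript lengths are from GENCODE M21 (GRCm38).

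Genes were kept by filterByExpr (minimum count 10, minimum total 15) in edgeR 4.0.16, scaled by TMM and fitted by robust quasi-likelihood over all 25 libraries with 1 mean per group (21 residual degrees of freedom). The Benjamini-Hochberg adjustment of two-sided p-values ran over 14133 genes, with a threshold of 0.05. Trp53, Cdkn1a and Mdm2 were also tested by exact permutation of CPM over the 12 libraries, adjusted over these 3 genes. List scores and principal components used log2 CPM with a prior count of 2, the components on 1000 genes. The 30 gene lists are described by medians and counts and were not tested. The fit was tested on simulated data.

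The comparison, the lists and the naming rule were chosen with earlier results of these data known. Named genes are Trp53, Cdkn1a and Mdm2, then, at a mean of at least 1 CPM and without model or clone names, the 12 of smallest p, the 8 largest rises and 8 largest falls without overlap, genes called by DESeq2 or limma voom, and up to 4 members of smallest p or a defining member of each list. Bax, Plk2, Gadd45a, Abhd4, Sesn1, Dram1 and Mdm4 were named after their values were seen. Of the genes this rule names, 1 is not reported here. Runs of library names were taken from the labels' library names. Alternatives are given in the closing section and used DESeq2 1.42.0 and limma 3.58.1. R 4.3.3, Python 3.11.15, numpy 2.4.6, scipy 1.17.1 and matplotlib 3.10.9 were used. All libraries entered each fit unless named as left out.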

Additional observations from a re-analysis of the deposited data

Results flagged for a closer look

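For 77 genes of the report and the 2 measures of transcript length and GC content, each group of 6 control-diet libraries was searched for a highest or lowest library that stood apart from its group. This held for 40 results of 158 groups. Of these, 13 lay in Control_p53KO 3, 11 in Control_p53KO 1 and 11 in Control_Rosa26KO 2. The rule flags about 1 in 20 groups of independent, normally distributed values. CPM values need not be normal, many of the genes vary together, and many were named for their values here. The count is therefore a description and not a test against chance. No difference between the diets in the p53KO over Rosa26KO log2 fold change passed after adjustment. The diets themselves were not compared.

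In Control_p53KO 3 the immune genes Vsig4 (507 CPM), C1qa (692 CPM), Folr2 (97.9 CPM), Itgam (107 CPM), Gzmk (6.23 CPM) and Gzmb (11.8 CPM) stood above the other p53KO libraries. So did Bax (22.3 CPM), Fundc2 (16.05 CPM), Vbp1 (20.9 CPM), Morc3 (39.4 CPM) and Pikfyve (29.0 CPM), while Commd3 (47.8 CPM) and the albumin gene Alb (57060 CPM) stood below them.

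In Control_p53KO 1 the neutrophil genes S100a9 (170 CPM), Mpo (38.7 CPM), Camp (18.5 CPM) and Retnlg (15.2 CPM) were high. The same library was high in Il1rn (97.6 CPM), H19 (89.3 CPM), Prom1 (52.7 CPM), Sult1e1 (112.8 CPM), Sult2a1 (55.7 CPM), Cyp3a41a (214 CPM) and Cyp17a1 (239 CPM). Mpv17l2 was high in Control_p53KO 6 (12.9 CPM).

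In Control_Rosa26KO 2 the p53 targets Cdkn1a (88.9 CPM), Aen (20.7 CPM), Gdf15 (40.4 CPM) and Abhd4 (70.0 CPM) were high, together with Fam110a (9.84 CPM), Cyp3a41a (30.0 CPM), Nfe2l2 (169 CPM), Cdkn2c (5.92 CPM), Mki67 (14.9 CPM) and Oasl1 (185 CPM). Its difference between the 10% of genes highest and lowest in GC content (0.56) also stood above that of the other Rosa26KO libraries. In other Rosa26KO libraries Mpv17l2 (18.7 CPM), Cyp17a1 (33.4 CPM) and Slc25a1 (451 CPM) were high in Control_Rosa26KO 5 and S100a9 (7.29 CPM) in Control_Rosa26KO 6.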

How the results depend on the processing

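By edgeR no setting called a gene after adjustment, and DESeq2 called 1. The counts of genes at an unadjusted p under 0.05 were 502 higher and 344 lower in a fit of the 12 control-diet libraries only, 325 higher by limma voom, and 326 higher and 356 lower with a transcript length term, chosen after seeing the data. Without Control_p53KO 1 and 3 they were 230 higher and 269 lower, and without Control_Rosa26KO 2 as well, also chosen later, 161 and 225. The counts without overlap were then 49 higher and 55 lower, and 69 and 102; fewer libraries overlap less often by construction. With 1 library left out, 413 to 1258 genes were higher and 317 to 1018 lower, the lowest counts without Control_p53KO 3 and without Control_Rosa26KO 5, and the highest without Control_p53KO 4. The counts without overlap were 18 to 69 higher and 26 to 81 lower. The cause of these shifts was not tested.

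With 1 library left out the log2 fold change was -0.76 to -0.53 for Trp53, -1.70 to -0.90 for Cdkn1a and -0.16 to -0.10 for Mdm2. The exact permutation p was 0.00216 to 0.0173 for Trp53, 0.0216 to 0.0996 for Cdkn1a and 0.0173 to 0.132 for Mdm2. Cdkn1a passed in 5 of 12 such tests and Mdm2 in 3, without Control_p53KO 3 or 4 or Control_Rosa26KO 1. The exact p of Mdm2 was 0.0648 within runs of library names. Of 77 genes named, 67 kept their direction in each of up to 24 settings that tested them (6 were not tested in the fit of the 12 control-diet libraries). Without Control_p53KO 1 and 3 the log2 fold change was -0.35 for Sult2a1, -0.0990 for C1qa, -0.17 for Vsig4, -0.51 for Camp, -0.0467 for Il1rn, -0.47 for Prom1, -0.24 for Mki67 and 0.0342 for Alb. Without Control_Rosa26KO 2 as well it was -0.19 for Sult2a1, -0.25 for Vsig4, -0.65 for Camp, -0.28 for Prom1 and 0.0154 for Oasl1. Without Control_p53KO 1 it was -0.69 for Sult2a1, -0.10 for Cyp3a41a and -0.34 for Prom1, without Control_p53KO 3 it was -0.0709 for Vsig4, and by limma voom it was -0.14 for Sult2a1. Over the 12 fits with 1 library left out these genes ranged from -0.69 to 6.88 (Sult2a1), -0.10 to 2.13 (Cyp3a41a), -0.0709 to 1.40 (Vsig4) and -0.34 to 2.62 (Prom1).

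Whether replicate numbers paired the samples was not tested. The correlation of same-numbered libraries was over 0.1 in 4 of 6 pairs (-0.40 to 0.58). The same-numbered Rosa26KO library had the highest correlation for replicates 1 (0.45) and 5 (0.58), and a Rosa26KO library of another number did for replicates 2, 3, 4 and 6. With the replicate block, 849 genes were higher and 812 lower at an unadjusted p under 0.05, with 0 called. Genes under about 1 CPM, such as Trp53cor1 and Eda2r, rest on few reads, and small differences in them were not detectable at this depth.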
